A study of Bubalus bubalis with 6 samples.

Results

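Host genes with 30 or more listed circRNAs in buffalo blood were described here. A circRNA is a closed RNA circle, made when the end of an exon is spliced back to an earlier start (back-splicing), and its host is the gene it comes from. Rows of the deposited table without a host gene were left out, the remaining rows were counted per host, and hosts with at least 30 rows were kept. This gave 226 of 8611 host genes (2.62%) with 9406 of 57308 circRNAs (16.4%). Some listed circRNAs of a host differ by 1 bp at an end, and whether such a pair is 1 circRNA or 2 is not known. They are counted apart here unless merging is stated, and with them merged 176 of the 226 hosts keep 30. Their number of circRNAs per host is what chose them and is given only as a description.

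Jugular vein blood was taken from 3 pregnant and 3 non-pregnant Jianghuai buffaloes, 1 library per animal. All were cows of 3 to 5 years whose estrus had been synchronised with a prostaglandin analogue. The pregnant cows had been artificially inseminated, were bled on day 25 after insemination and were later found pregnant by ultrasound on day 60. The non-pregnant cows had not been inseminated and were bled on the same day 25. The effects of insemination cannot be told apart from those of pregnancy. Linear RNA was digested with RNase R before sequencing. In whole blood, fewer cells of a type and less RNA per cell cannot be told apart.

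Back-splicing joins a downstream donor to an upstream acceptor, and a gene with many exons offers many such pairs. Long introns that flank the circularised exons, and repeats in them that pair with each other, are known to favour it. One gene therefore often gives a set of overlapping circles, of which commonly a single one holds most of the reads. Circles made of an intron alone (ciRNA in the table) arise from lariats that escape debranching.

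The libraries held 815851 to 1298753 circRNA reads. Reads of the 226 hosts took 19.3%, 23.5% and 21.5% of a library in pregnant replicates 1, 2 and 3, against 19.9%, 22.4% and 20.2% in non-pregnant replicates 1, 2 and 3. The means were 21.4% ± 2.12 in pregnant and 20.8% ± 1.40 in non-pregnant cows (SD, n = 3 each), and the groups overlapped. Non-pregnant replicate 2 stood apart, with 2286 circRNAs of these hosts detected against 3014 to 4781 in the other libraries. All 226 hosts were read in every library, except LOC102389123, which had 0 reads in pregnant replicate 1. Counting intervals given below are 95% Wilson intervals of single libraries and cover counting error only, because no molecular identifiers are described for these reads.

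Of the hosts just inside the threshold, 19 gave exactly 30 circRNAs, and 28 hosts just outside gave 29. Those with 30 had a median of 1907 reads (424 to 33148) and a median of 38.7% of reads in their leading circRNA. Those with 29 had a median of 2349.5 reads (528 to 164958) and 44.1% in the leading circRNA. The hosts with 30 were ABHD18, SACM1L, DLG1, UBR2, SUCO, CBLB, TESK2, RANBP17, PPP3CA, WDFY4, AGAP1, SCFD1, TTC27, LTBP1, EXOC4, FAM49B, EPG5, CELF2 and CNOT1. The hosts with 29 included VRK1, a nuclear kinase with the 164958 reads, FAR2 with 29067 and the integrin gene ITGAL with 8357. The number 30 thus did not separate hosts with many reads from hosts with few.

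The most circRNAs came from SYNE1, the gene of the nuclear envelope linker nesprin, with 96. VPS8, a subunit of an endosomal tethering complex, gave 93. LOC102411048 gave 84 and LOC102389123 gave 82, and both resemble the exporter multidrug resistance-associated protein 4. GPCPD1, a glycerophosphocholine phosphodiesterase, gave 81. PICALM, a clathrin assembly gene, and LOC102413663, which resembles the same exporter, gave 76 each. UTRN, the dystrophin relative utrophin, gave 72, and ITPR2, an inositol trisphosphate receptor, and HERC1, a giant ubiquitin ligase, gave 71 each. The median host gave 37. These 10 hosts ranged from 2159 reads (LOC102389123) to 89452 reads (PICALM) over the 6 libraries.

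Reads per host spread over more than the number of circRNAs did. The median was 3455.5 reads over the 6 libraries, from 424 for CNOT1, the scaffold of the deadenylase complex, to 89452 for PICALM. In 28 hosts there were more than 10000 reads and in 15 fewer than 1000. The 10 hosts with the most reads held 27.4% of all reads of the 226. Across the 226 hosts Spearman's rank correlation was 0.29 between the number of circRNAs and the reads, and 0.26 between the number of circRNAs and the length of gene covered by them. It was -0.08 between that length and the reads. These values are across genes of the same 6 libraries, which are not independent replicates.

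**Figure D1:**
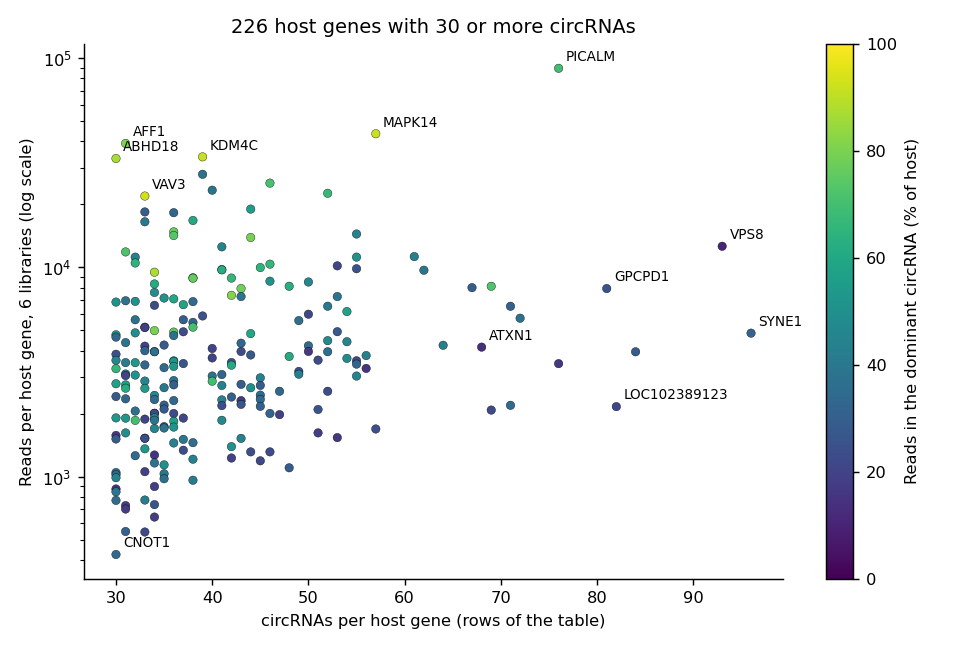
CircRNAs per host gene (x axis) against reads per host gene summed over the 6 libraries (y axis, log scale) for the 226 hosts, 1 point per host, coloured by the percentage of its reads in the leading circRNA. PICALM, with 76 circRNAs and 89452 reads, lies at the top, and SYNE1, with the most circRNAs (96), had 4847 reads.

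PICALM had 8878, 37359 and 13597 reads in pregnant replicates 1, 2 and 3, against 9372, 14947 and 5299 in non-pregnant replicates 1, 2 and 3. Pregnant replicate 2 was the highest and the groups overlapped. MAPK14, a stress-activated MAP kinase, had 7662, 12329 and 8164 reads in pregnant cows, against 4989, 4512 and 5863 in non-pregnant cows. As deposited these reads did not overlap, but after scaling to library size with TMM factors (counts per 1000000 reads, CPM, over all circRNAs of a host) the groups overlapped, at 8227 ± 1316 in pregnant and 5568 ± 1310 CPM in non-pregnant cows (SD, n = 3 each). AFF1, a subunit gene of the super elongation complex, had 9568, 10276 and 6223 reads in pregnant cows, against 5097, 3826 and 4135 in non-pregnant cows. Its scaled levels did not overlap either, at 7575 ± 812 in pregnant and 4804 ± 1440 CPM in non-pregnant cows, with an adjusted p of 0.901 (edgeR quasi-likelihood test, Benjamini-Hochberg over 4137 hosts).

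KDM4C, a histone lysine demethylase, had 5548, 6122 and 3856 reads in pregnant cows, against 5213, 4161 and 8854 in non-pregnant cows. ABHD18 had 3093, 6885 and 5130 reads in pregnant cows, against 7350, 7703 and 2987 in non-pregnant cows. UBE2H, a ubiquitin-conjugating enzyme, had 2603, 6287 and 3651 reads in pregnant cows, against 5228, 6079 and 3997 in non-pregnant cows. In all of these the groups overlapped as deposited. After scaling, the levels of KDM4C no longer overlapped, at 4522 ± 336 in pregnant and 6233 ± 771 CPM in non-pregnant cows (SD, n = 3 each), with an adjusted p of 0.957 (edgeR). The other hosts among the 10 with the most reads were TXNDC16 (25271 reads over the 6 libraries), the polarity kinase gene MARK3 (23377), PAN3, a subunit of a poly(A) nuclease (22601), and VAV3 (21918).

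By known role of the host, assigned after the names were seen, membrane traffic was the largest group, with 40 hosts, 1788 circRNAs and 20.1% of the reads of the 226. It held VPS8, PICALM and members of the VPS13 lipid transfer family. Ubiquitin and SUMO enzymes followed with 28 hosts, 1148 circRNAs and 11.5% of the reads, among them HERC1, HUWE1, BIRC6 and UBE2H. Chromatin, cohesin and transcription had 22 hosts with 11.9% of the reads. Protein kinases and phosphatases had 18 hosts with 9.95% of the reads and the highest median share of a leading circRNA among the groups of 10 or more hosts, 46.0%. PTPRC, the leukocyte common antigen, is among these. ABC transporters had 12 hosts, 595 circRNAs and 2.20% of the reads, with a median leading share of 29.6%.

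Counted against lists of related genes, 13 of 22 large ubiquitin ligases with any circRNA in the table were among the 226 hosts (UBE3C, HERC4, UBR2 and UBR3 by reads). Of 25 genes of vesicle tethering and the VPS13 family 7 were, led by VPS8, VPS13B, VPS13D and VPS13C. Of 48 chromatin modifiers and remodellers 5 were (KDM4C, ARID1B, KDM6A and ASH1L, and KMT2C), and of 21 genes of clathrin-mediated endocytosis 3 were (PICALM, DNM3 and EPS15). Over all hosts the share was 2.62%. The lists were chosen with earlier results of these data known, so these shares are only a description. The list of large ubiquitin ligases and that of giant linkers also hold big genes by their making. The circRNAs of the 226 hosts covered a median of 151856 bp, against 15256.5 bp in hosts with 2 to 9 circRNAs. Of the giant cytoskeletal linkers, 2 of 13 were among the 226 (UTRN and SYNE1). Of 26 genes known from other mammals for abundant circRNAs, 6 were, among them PICALM, AFF1, SYNE1 and ARHGAP10. The table's KEGG terms covered 110 of the 226 hosts, of which 13 (11.8%) carried ubiquitin-mediated proteolysis, beside 3.07% of 4070 annotated hosts. The commonest term was cAMP signalling, on 15 (13.6%, beside 3.51%). ABC transporters were on 12 (10.9%, beside 2.21%). The same 10 hosts carry both terms, and also the term antifolate resistance. Among them are multidrug resistance-associated protein 4-like hosts such as LOC102411048. The other hosts with the cAMP term were BRAF, PDE3A, PLD1, TIAM1 and VAV3. Those with the other term were ABCB4 and LOC102392421.

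For blood cell types, 4 of 21 erythroid genes matched to a host by name were among the 226 hosts (EPB41, GPCPD1, SOX6 and XPO7). The erythroid gene MARCH8 was listed under a newer symbol and not matched. It had 29 circRNAs and so lies outside the 226. Of neutrophil genes 2 of 12 were (MCTP2 and ITGAM) and of platelet genes 1 of 21 (DNM3). None of 16 T cell, 13 B cell, 7 monocyte or 4 NK and cytotoxic cell genes were. Several defining genes, such as those of globins (HBA and HBB), CD14 and CD3D, were not matched to a host by name. Whether they have circRNAs under other names was not checked.

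The leading (dominant) circRNA of a host was the one with the most reads over the 6 libraries. It held a median of 37.4% of the host's reads, from 10.5% to 92.9%. In 62 hosts it held more than 50%, in 12 more than 75%, and in 21 less than 20%. Put as an effective number (the number of equally read circRNAs that would give the same evenness), the median host had 4.68, against 37 rows, and the range was 1.16 to 18.9. In 62 hosts 1 circRNA was enough for 50% of the reads, in 125 hosts 2 or 3 were, and in 39 hosts 4 or more were needed. The 226 leading circRNAs together held 52.6% of the reads of the 9406.

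The highest shares were found in VAV3, MAPK14, KDM4C, SNX13 and ABHD18. In VAV3, circRNA1919 (NC_037550.1, 35424861 to 35444397, plus strand, 4 exons) held 20359 of 21918 reads, 92.9%. In MAPK14 the leader was ciRNA1163, an intronic circle of 216 bp (NC_037546.1, 42403702 to 42403917, minus strand), with 40106 of 43519 reads, 92.2%, and the next of its 57 circRNAs held 1.35%. In KDM4C, circRNA2571 (NC_037547.1, 100935691 to 100957103, minus strand, 3 exons) held 91.7%. In SNX13, a sorting nexin gene, circRNA10577 of 4 exons held 87.4%. In ABHD18, circRNA9732 (NC_037561.1, 43304611 to 43305440, plus strand, 2 exons, 830 bp) held 87.0%. Positions are those of the deposited table.

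The lowest shares were found in VPS8, ATXN1, NAV3, FAM49B and USP25. In VPS8, circRNA19343 (NC_037545.1, 127073275 to 127088514, minus strand, 5 exons) held 10.5% of 12611 reads, and the next, circRNA4498, held 8.78%. The circRNAs of VPS8 used 47 different starts and 37 different ends, and 1 end was shared by 9 of them. In ATXN1, the ataxin gene of a transcriptional corepressor, circRNA7707 held 13.5% of 4155 reads and 8 circRNAs were needed for 50% of them, the most of any of these hosts. In NAV3, a microtubule-binding navigator gene, ciRNA2351 held 190 of 1267 reads. In FAM49B, an actin regulator, circRNA23833 held 15.3% of 872 reads, and in USP25, a deubiquitinase, circRNA4225 held 15.6% of 3287 reads. With circRNAs within 1 bp summed, VPS8 had a leading share of 18.9% and NAV3 one of 19.7%, which placed them 13 and 17 from the lowest, and ATXN1 was the lowest at 13.5%. Across the 226 hosts Spearman's rank correlation between reads and leading share was 0.43, over values that share the read counts.

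**Figure D2:**
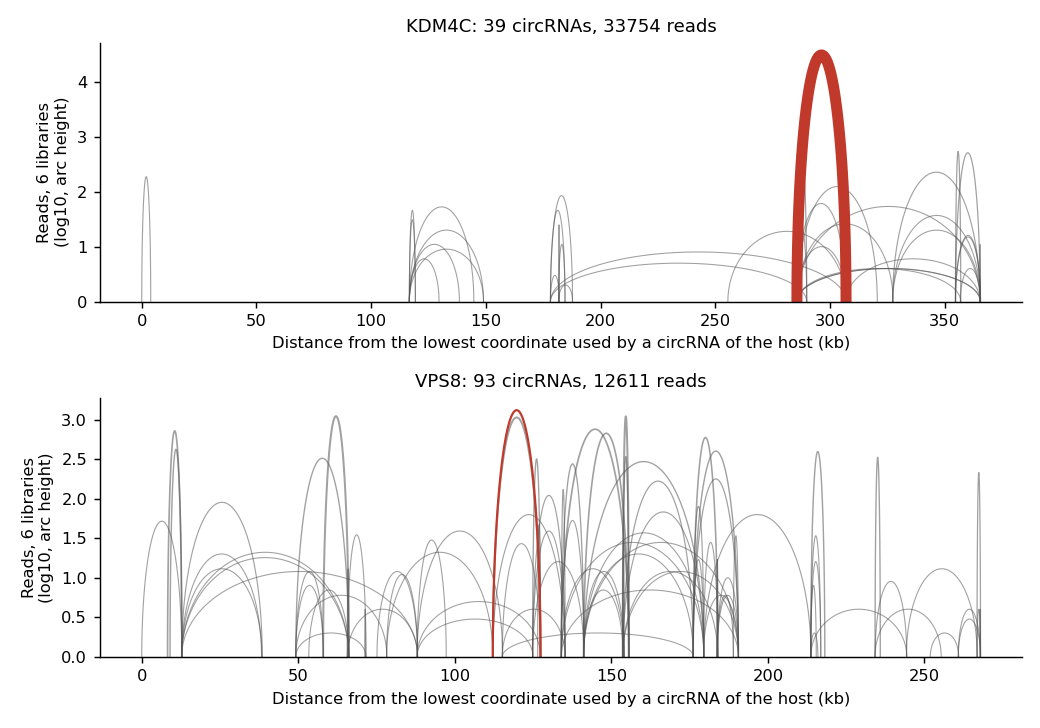
Back-splice arcs of KDM4C (top, 39 circRNAs, 33754 reads) and VPS8 (bottom, 93 circRNAs, 12611 reads), from start to end of each circRNA by distance from the lowest coordinate used by the host in kb, with the arc's height giving the log10 of its reads over the 6 libraries and its width its share. The leading circRNA, in red, holds 91.7% of the reads in KDM4C and 10.5% in VPS8, or 18.9% in VPS8 once summed with its partner 1 bp away.

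Of the 226 leading circRNAs, 209 were exonic and 17 intronic. The exonic leaders were short: 88.0% of them spanned 2 to 4 exons, against 62.2% of the 8004 other exonic circRNAs of these hosts, and their median length on the genome was 4818 bp, against 9610.5 bp. The introns on both sides of a leader had a median mean length of 9943.5 bp, against 6506 bp for the others. Within a host, the leader had fewer exons than the median of the host's other circRNAs in 127 of 209 hosts and more in 40, and longer flanking introns in 130. No test was made over these hosts. Intronic leaders with many reads, besides MAPK14, were ciRNA1740 of MARK3 with 9027 reads (38.6%) and ciRNA1559 of STAU1, a double-stranded RNA-binding protein, with 5907 reads (32.4%). Intronic circRNAs made up 12.7% of the 9406 and 9.18% of their reads.

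Set beside the 1501 hosts with 10 to 29 circRNAs, the 226 hosts had a lower median leading share (37.4% against 45.4%), more reads per host (3455.5 against 765) and nearly the same reads per circRNA (a median of 11 against 10). The share of circRNAs seen in 1 library only was 52.5% against 53.1%, with 3.43% against 3.35% of the reads. Their circRNAs more often spanned 5 or more exons, 32.5% against 26.0%. A leading share falls as rows are added, and the number of rows chose the hosts, so this comparison carries no test.

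CircRNAs read in 1 library only made up 4937 of the 9406, while 897 (9.54%) were read in all 6 and held 79.1% of the reads. With circRNAs within 1 bp merged, an alternative added after seeing the data, 4069 of 8546 (47.6%) were read in 1 library only and 1120 in all 6. Unmerged, both groups read 3747 of them (39.8%). In pregnant cows alone 3449 were read (36.7%), and in non-pregnant cows alone 2210 (23.5%), beside 37.9% and 25.7% of all 57308 circRNAs in the table. Merged, 2973 were read in pregnant cows alone and 1771 in non-pregnant cows alone. In all 3 pregnant and no non-pregnant library 76 were read (0.808%, background 0.75%), and in all 3 non-pregnant and no pregnant library 17 (0.181%, background 0.215%), so these shares were near those of the whole table. Detection moved with the library: 3738, 4781 and 3268 of the circRNAs were detected in pregnant replicates 1, 2 and 3, against 3014, 2286 and 4205 in non-pregnant replicates 1, 2 and 3.

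The same circRNA led in all 6 libraries in 69 hosts, 2 different ones led in 80, 3 in 51 and 4 or more in 26. A library's own leader differed from the overall leader in 58, 43 and 48 hosts in pregnant replicates 1, 2 and 3, against 64, 94 and 48 hosts in non-pregnant replicates 1, 2 and 3. Non-pregnant replicate 2 was the highest. The median share of a library's own leaders was 37.8%, 39.8% and 38.9% in pregnant replicates 1, 2 and 3, against 42.0%, 54.7% and 41.0% in non-pregnant replicates 1, 2 and 3. The groups did not overlap, and non-pregnant replicate 2 stood apart from the other 5 libraries. Every other per-library summary of these hosts compared between the groups, such as their share of reads, overlapped. The same medians over all hosts were not set beside these. No test was made of these medians. In 21 hosts more than 50% of the leader's reads came from 1 library, which was non-pregnant replicate 2 in 16 of them.

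For MAPK14 the leader held 94.0%, 94.3% and 96.5% of the reads in pregnant cows, against 85.8%, 87.4% and 88.3% in non-pregnant cows, with interval half-widths of 0.399 to 0.969 percentage points. The groups did not overlap. For VAV3 it was 88.8%, 91.6% and 91.1% in pregnant cows, against 92.2%, 99.1% and 94.1% in non-pregnant cows. These groups did not overlap either, in the opposite direction. For KDM4C it was 88.1%, 92.6% and 89.0% in pregnant cows, against 90.9%, 95.4% and 93.3% in non-pregnant cows, and the groups overlapped. For these 3 hosts every library had the same leader. For ABHD18 it was 84.0%, 85.2% and 84.7% in pregnant cows, against 91.4%, 86.8% and 87.9% in non-pregnant cows, lower without overlap. For SNX13 the groups overlapped.

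In ATXN1 and NAV3 the leader's share was far higher in 1 library than in the other 5. For ATXN1 the shares were 9.65%, 12.5% and 5.75% in pregnant cows, against 8.31%, 74.4% and 8.16% in non-pregnant cows, where the value of 74.4% (69.1% to 79.1%) belongs to non-pregnant replicate 2. That library gave 215 of the leader's 561 reads (38.3%), and without it the share was 8.95%. For NAV3 the leader held 180 of 330 reads there, 54.5% (49.2% to 59.8%), and at most 2.78% in any other library. That library gave 180 of the leader's 190 reads (94.7%), and without it the share was 1.07%. The pattern was also seen in CELF2, an RNA-binding splicing regulator with an overall share of 35.2%, where circRNA18958 had 269 of 274 reads in non-pregnant replicate 2, 98.2% (95.8% to 99.2%), 2 reads in non-pregnant replicate 3 and 0 in the other 4 libraries. There the host had 48 to 110 reads, and in the shallowest library 0 of 48 reads allows a share of up to 6.25% by a limit of 3 reads, with a Wilson upper bound of 7.41%.

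**Figure D3:**
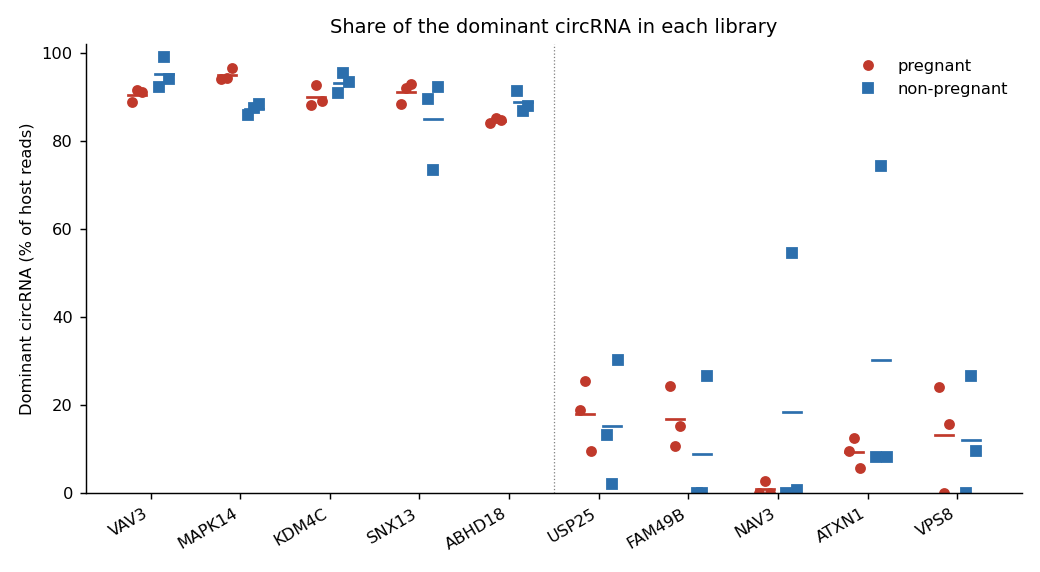
Share of a host's reads in its leading circRNA, in percent, in each library for the 5 hosts with the highest (left of the dotted line) and the 5 with the lowest overall share, with pregnant libraries (red circles) left of non-pregnant ones (blue squares) and bars for the mean of 3. The high shares lie between 73.4% and 99.1%, and the isolated points at 74.4% for ATXN1 and 54.5% for NAV3 are both non-pregnant replicate 2.

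The leading share did not overlap between the groups in 40 of the 225 hosts read in all libraries (17.8%), against 12.0% of 3303 hosts with 2 or more circRNAs read in all libraries. It was higher in pregnant cows in 14 (background 4.45%) and lower in 26 (background 7.57%). With circRNAs of a host that lie within 1 bp summed, it was higher in 15 (background 4.42%) and lower in 26 (background 7.87%), together 41 (background 12.3%). The leader was chosen from the reads of the same libraries, so libraries with more reads weigh in its choice. Without non-pregnant replicate 2 and with leaders chosen again, it was 64 of 225 (28.4%), against 22.2% of all such hosts, with 25 higher (background 10.1%) and 39 lower (background 12.0%), an alternative added after seeing the data. DTNB, dystrobrevin of the dystrophin complex, had 26.0%, 30.1% and 21.6% in pregnant cows, against 56.6%, 71.7% and 56.9% in non-pregnant cows. EIF4G3, a translation initiation scaffold, had 22.03%, 46.0% and 37.8% in pregnant cows, against 62.6%, 63.9% and 63.9% in non-pregnant cows. In non-pregnant replicate 2 that is 23 of 36 reads (47.6% to 77.5%), an interval that overlaps the one of pregnant replicate 2 (41.1% to 51.0%). Both hosts were chosen after their values were seen.

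Many circRNAs of these hosts had a near twin. Of the 9406, 1712 (18.2%) had a partner of the same host and strand whose start and end lay within 1 bp, in 852 sets, of which 850 were pairs. In 843 of the 850 pairs the ends were identical and the lower coordinate differed by 1 bp, on the plus strand in 405 and on the minus strand in 438. The members of a set were almost never read together: of 3503 cases in which a library read a set, it read more than 1 member in 12 (0.343%). Which member a library read differed from pair to pair. Among the 225 pairs read in all 6 libraries, 1 library stood alone against the other 5 in 148, most often non-pregnant replicate 2 (44) and non-pregnant replicate 1 (38), and 14 to 20 times each of the others.

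Merging such sets left 176 of the 226 hosts with 30 or more circRNAs. The median leading share moved little, to 37.5%, and it grew by more than 5 percentage points in 9 hosts. VPS8 was one: circRNA19343 had 362, 0 and 260 reads in pregnant cows, against 0, 504 and 193 in non-pregnant cows. Its partner circRNA4502 had 0, 886 and 0 reads in pregnant cows, against 181, 0 and 0 in non-pregnant cows. Together they held 18.9% of the reads of VPS8. In KTN1, the kinectin gene, circRNA24173 was read in pregnant replicates 1, 2 and 3 and non-pregnant replicate 3, and its partner circRNA12850 in non-pregnant replicates 1 and 2. In TMEM164, circRNA43011 was read in pregnant replicate 2 alone, with 1398 reads, and circRNA12402 in the other 5 libraries.

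**Figure D4:**
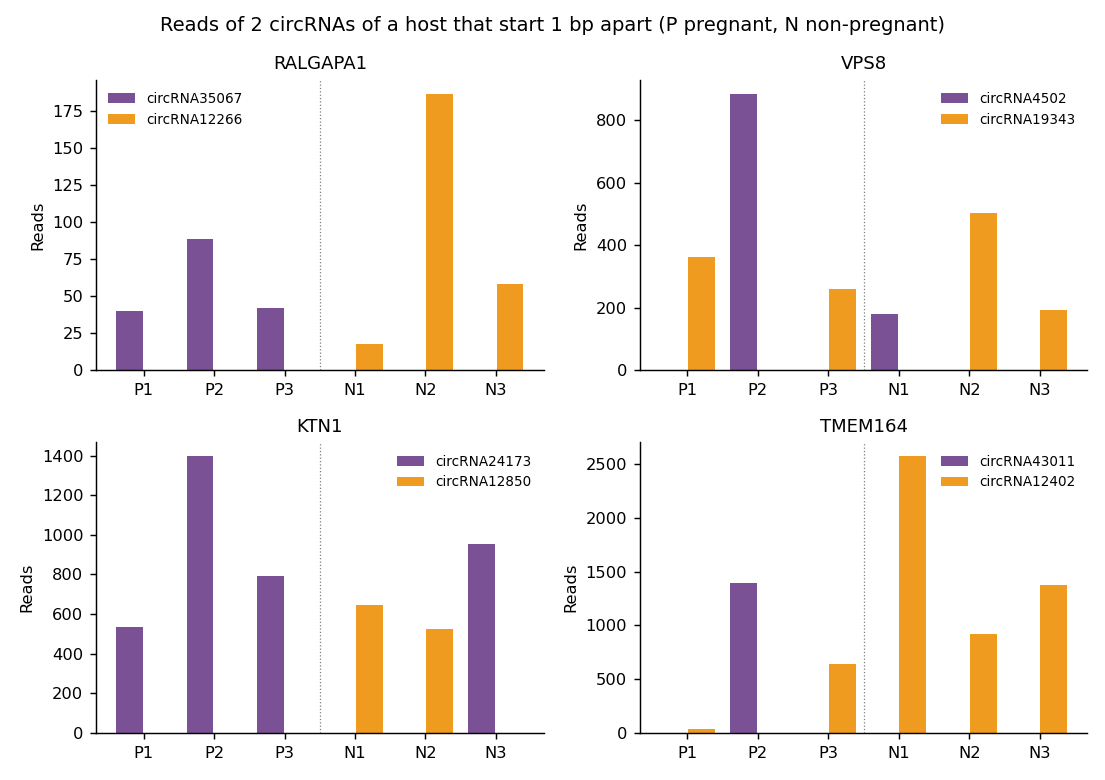
Reads in each library (y axis; P1 to P3 pregnant, N1 to N3 non-pregnant) of 2 circRNAs of a host that share an end and start 1 bp apart, for RALGAPA1, VPS8, KTN1 and TMEM164. Each library reads 1 of the 2 and not the other, and in RALGAPA1 alone the switch falls between the groups.

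The study asked how circRNAs in blood differ between pregnant and non-pregnant cows. Summed over all circRNAs of a host, 4137 hosts were tested with edgeR, all 226 among them. None was called at an adjusted p under 0.05 with a log2 fold change of at least 1 (background 0%), while DESeq2 called 7 of the hosts it tested. At an unadjusted p under 0.05 there were 8 of the 226 (3.54%), against 229 of 4137 (5.54%). Of the 8, USP9X was higher in pregnant cows (background 0.991% higher) and 7 were lower (background 4.54% lower). The 8 became 3 (1.33%) without pregnant replicate 1, where 3.74% of all hosts tested were under the threshold. They became 9 (3.98%, against 4.55%) without pregnant replicate 2 and 5 (2.21%, against 3.27%) without pregnant replicate 3. They became 18 (7.96%, against 9.86%) without non-pregnant replicate 1, 14 (6.19%, against 5.03%) without non-pregnant replicate 2 and 24 (10.6%, against 11.2%) without non-pregnant replicate 3.

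USP9X, an X-linked deubiquitinase, had 87.6, 597 and 131 CPM in pregnant cows, against 75.1, 45.2 and 60.3 CPM in non-pregnant cows. Pregnant replicate 2 held 66.9% of its reads. The log2 fold change was 2.17 (SE 0.79, adjusted p 0.844) and 0.85 without that library. ATP9B, a putative lipid flippase, had 289, 420 and 444 CPM in pregnant cows, against 1228, 1337 and 569 CPM in non-pregnant cows, with a log2 fold change of -1.44 (SE 0.51, adjusted p 0.844). DGKH, a diacylglycerol kinase, had 223, 355 and 270.4 CPM in pregnant cows, against 660, 693 and 691 CPM in non-pregnant cows, with a log2 fold change of -1.27 (SE 0.50, adjusted p 0.844). STXBP5, the SNARE regulator tomosyn, had 1970, 1929 and 2462 CPM in pregnant cows, against 4305, 5495 and 3211 CPM in non-pregnant cows, with a log2 fold change of -1.03 (SE 0.41, adjusted p 0.844). In these 4 hosts the groups did not overlap.

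The next smallest p-values among hosts higher in pregnant cows belonged to LOC102404242, AFF1, ZMYND8 and HERC1, none at an unadjusted p under 0.05. ZMYND8, a chromatin reader, had 274, 253 and 274 CPM in pregnant cows, against 78.2, 26.5 and 240.3 CPM in non-pregnant cows, with a log2 fold change of 1.21 (SE 0.74, adjusted p 0.906, edgeR). It was 0.75 without non-pregnant replicate 2 and 2.34 without non-pregnant replicate 3. HERC1 had 349, 575 and 336 CPM in pregnant cows, against 264, 109 and 292 CPM in non-pregnant cows. Both pairs of ranges were apart by less than the spread within a group.

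The kinase gene MAP4K5 had a log2 fold change of -1.54, TENT2, a cytoplasmic poly(A) polymerase, one of -1.31, ATP8A1, a flippase, one of -1.54 and LOC102392650, described as an EF-hand protein, one of -1.17, at adjusted p of 0.844 to 0.848. After scaling, non-pregnant replicate 2 was the highest library of all 4. Without it the log2 fold changes were -0.46 for MAP4K5, -0.20 for TENT2, -0.65 for ATP8A1 and -0.62 for LOC102392650. Over the 226 hosts groups did not overlap in CPM in 26 (11.5%), against 11.5% of all hosts tested. Of these, 5 were higher in pregnant cows (background 7.06%) and 21 lower (background 4.47%).

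**Figure D5:**
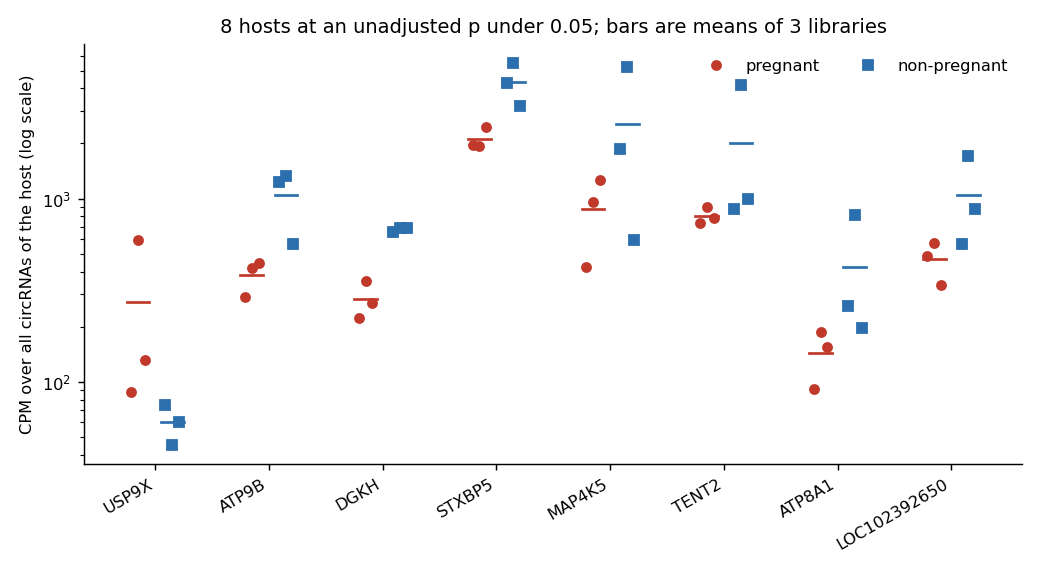
CPM over all circRNAs of a host (log scale) in each library for the 8 hosts at an unadjusted p under 0.05, with pregnant libraries (red circles) left of non-pregnant ones (blue squares) and bars for the mean of 3. DGKH has 223 to 355 CPM in pregnant and 660 to 693 CPM in non-pregnant cows, and 1 of the 3 pregnant libraries sets the mean of USP9X.

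The median log2 fold change of the 226 hosts was -0.31, beside 0.01 over all 4137 hosts tested. It moved with the scaling: -0.63 with RLE factors (all hosts -0.13) and -0.0022 with the library totals implied by the authors' normalisation (all hosts 0.16). Without non-pregnant replicate 2 it was 0.01 (all hosts 0.03). The TMM factor of that library was 0.688 at the level of hosts, against 0.991 to 1.13 in the others. At the level of single circRNAs it was 0.467, against 1.09 to 1.25 in the others.

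Of the 7 lists of blood cell markers, the erythroid and the platelet sums separated the groups before TMM scaling. Unlike the CPM above, these sums are reads per 1000000 reads of a library without TMM factors. Their overlap is judged on that scale. The summed level of the 21 erythroid hosts was 7078, 10937 and 9020 CPM in pregnant cows, against 5970, 7017 and 4975 CPM in non-pregnant cows. That of the 21 platelet hosts was 3647, 3217 and 2845 CPM in pregnant cows, against 4756, 4226 and 4670 CPM in non-pregnant cows. Neither sum overlapped between the groups. The erythroid sum leaves out MARCH8, which had 9928 reads over the 6 libraries. The TMM factors were 0.688 in non-pregnant replicate 2 and 1.10 in pregnant replicate 1. After division by them the erythroid sum of the former lies above that of the latter, so the erythroid groups then overlap. The platelet groups stay apart after division of each library by its factor. Of 13 erythroid hosts tested 2 were higher at an unadjusted p under 0.05 (background 0.991%), and of 17 platelet hosts 2 were lower (background 4.54%), none at an adjusted p. The neutrophil hosts overlapped, at 873 to 1533 CPM in pregnant and 1358 to 2117 CPM in non-pregnant cows. The monocyte hosts overlapped too, at 687 to 928 CPM in pregnant and 661 to 1365 CPM in non-pregnant cows. So did those of T cells (2408 to 4433 CPM in pregnant and 2971 to 4464 CPM in non-pregnant cows), of B cells (1230.3 to 1593 CPM in pregnant and 1122 to 2577 CPM in non-pregnant cows) and of NK and cytotoxic cells (6.93 to 14.7 CPM in pregnant and 0 to 14.3 CPM in non-pregnant cows). The part of cell composition in the values of the 226 hosts was not tested.

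Among single circRNAs, 8261 passed the filter on low counts, 1621 of them from the 226 hosts. None of the 8261 was called by edgeR (background 0%), and DESeq2 called 159 of the circRNAs it tested. At an unadjusted p under 0.05 there were 78 of the 1621 (4.81%), against 322 of 8261 (3.90%). Of these, 32 were higher in pregnant cows (background 1.43%) and 46 lower (background 2.47%). CPM did not overlap between the groups in 204 (12.6%, background 12.0%), higher in pregnant cows in 131 (background 8.16%) and lower in 73 (background 3.87%). Folds given as "at least" compare pooled reads of one group with 3 reads over the group at 0.

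The smallest p among those higher in pregnant cows belonged to circRNA35067 of RALGAPA1, a subunit of the Ral GTPase-activating complex, with 40, 89 and 42 reads in pregnant cows, against 0 in all 3 non-pregnant cows (at least 45.1-fold higher, adjusted p 0.983). Its partner circRNA12266, which starts 1 bp away and shares its end, had 0 reads in all 3 pregnant cows, against 18, 187 and 58 reads in non-pregnant cows (at least 111-fold lower). Summed, the pair had 40, 89 and 42 reads in pregnant cows, against 18, 187 and 58 in non-pregnant cows, with an unadjusted p of 0.159. Of the 225 pairs read in all 6 libraries, this was the only one whose members split exactly by group.

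In PICALM, circRNA36224 (13 exons) had 71, 32 and 25 reads in pregnant cows, against 0 in non-pregnant cows, where its partner circRNA20126 had 0, 2 and 9. With both summed the log2 fold change was 3.25 (unadjusted p 0.0204). The second PICALM circRNA, circRNA27870 (10 exons), had 29, 466 and 113 reads in pregnant cows, against 0, 0 and 6 in non-pregnant cows, and no partner. In GPCPD1, circRNA36399 (8 exons) had 21, 28 and 40 reads in pregnant cows, against 0 in non-pregnant cows, where its partner circRNA31050 had 10 in replicate 3. In RMDN2, a microtubule-associated regulator, circRNA31450 (6 exons) had 15, 112 and 29 reads in pregnant cows, against 0 in non-pregnant cows (at least 41.1-fold higher), and no partner. Adjusted p was 0.983 for each.

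Among those lower in pregnant cows, ciRNA592 of LOC102389123 had the smallest p, with 0 reads in pregnant cows, against 148, 242 and 69 in non-pregnant cows (at least 193-fold lower, adjusted p 0.983). A further intronic circRNA of the same host, ciRNA594, had 0, 5 and 0 reads in pregnant cows, against 53, 12 and 28 in non-pregnant cows. In GPCPD1, circRNA15295 had 0 reads in pregnant cows, against 16, 92 and 12 in non-pregnant cows, and its partner circRNA43710 had 21 reads in pregnant replicate 2 alone. In DGKH, circRNA6799, the leader of its host, had 49, 82 and 103 reads in pregnant cows, against 427, 194 and 454 in non-pregnant cows, with a log2 fold change of -2.56 (SE 0.76, adjusted p 0.983). Its groups did not overlap and it had no partner.

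The make-up of a host's circRNAs was compared between groups with edgeR's diffSpliceDGE, which asks whether circRNAs of 1 host change by different folds. Of 1739 hosts tested 4 (0.230%) passed at an adjusted p under 0.05, and 1 of the 224 tested here (0.446%), RALGAPA1, at an adjusted p of 0.0318. At an unadjusted p there were 19 of 224 (8.48%), against 7.02% of all. After partners within 1 bp were summed RALGAPA1 had an adjusted p of 0.858 and no host passed (background 0%, with 30 at an unadjusted p against a background of 10.6%), so the difference lay in the pair circRNA35067 and circRNA12266. Before summing, its adjusted p was 0.0649 without pregnant replicate 1, 0.221 without pregnant replicate 2, 0.211 without pregnant replicate 3 and 0.242 without non-pregnant replicate 2, and stayed under 0.05 without either of the others. The next hosts were PICALM with an adjusted p of 0.0531 (0.108 after summing), GPCPD1 with 0.122 (0.0846), HECTD4, a ubiquitin ligase, with 0.209 (0.190) and SCFD1, a SNARE-binding protein of the secretory pathway, with 0.388 (0.251).

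In GPCPD1 the leader circRNA11870 had 318, 703 and 418 reads in pregnant cows, against 157, 150 and 293 in non-pregnant cows, and the next, circRNA11871, had 111, 148 and 94 reads in pregnant cows, against 48, 222 and 93 in non-pregnant cows. In HECTD4 the leader circRNA9559 had 14, 68 and 70 reads in pregnant cows, against 82, 151 and 43 in non-pregnant cows. The third, circRNA26585, had 11, 70 and 20 reads in pregnant cows, against 0, 0 and 1 in non-pregnant cows.

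Of the 226 hosts, 10 were described as multidrug resistance-associated protein 4-like. These belong to the ABCC transporters, which export organic anions such as cyclic nucleotides. They gave 32 to 84 circRNAs each and 1312 to 4463 reads, and 9 of the 10 lie on the same chromosome sequence, NC_037557.1. Near-identical copies can share reads, so the split of reads among them is uncertain. Pregnant replicate 2 had the most reads in 8 of the 10, before any scaling. It was also the library with the most circRNA reads (1298753), and the count over all 226 hosts was not set beside this. LOC102411048 had 155, 1766 and 927 reads in pregnant cows, against 537, 365 and 198 in non-pregnant cows. LOC102395698 had 71, 1041 and 245 reads in pregnant cows, against 437, 170 and 137 in non-pregnant cows. LOC102389123 had 0, 548 and 515 reads in pregnant cows, against 343, 435 and 318 in non-pregnant cows, and of its 82 circRNAs 63 were read in 1 library only and none in all 6. Without these 10 hosts the rest took 21.0% of the reads in pregnant and 20.5% in non-pregnant cows.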

How the data were processed

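Blood of 3 pregnant and 3 non-pregnant Jianghuai buffaloes was sequenced after removal of ribosomal RNA and RNase R digestion. The paper describes read trimming with Cutadapt, mapping with Bowtie2 and Tophat2 to ASM312139v1, and circRNA calls with CIRCExplorer and CIRI. Different tools (HISAT2, StringTie, fastp, edgeR, HOMER, ChIPseeker) and the human build GRCh38.p10 stand in the submitters' processing notes, and which tools made the table could not be settled. The authors deposited whole-number back-splice read counts per circRNA and library. The authors also deposited a junction signal per circRNA scaled to mapped reads (SRPBM), here used only for the library totals in an alternative scaling. A count of 0 allows up to 3 reads, 2.31 to 3.68 CPM in these libraries.

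Reads were summed per host and tested with edgeR 4.0.16 (R 4.3.3; TMM factors, default filter on low counts, quasi-likelihood test, Benjamini-Hochberg adjustment over all features, thresholds of adjusted p 0.05 and absolute log2 fold change 1), then likewise per circRNA. Make-up within hosts was tested with diffSpliceDGE. The study's t-test was replaced because the values are counts. DESeq2 1.42.0, RLE factors, other filters, merging within 1 bp, the replicate number as a block and leaving out each library were alternatives. Tests were also run on simulated counts with a single fixed dispersion and the same profile in every library. Those counts model neither the library that stood apart nor the near twins, so they do not show how the tests behave here. Named hosts were the 10 with the most circRNAs, the 10 with the most reads, the 5 with the highest and 5 with the lowest leading share, the hosts at the threshold, the 5 with the smallest p per direction and in the make-up test, and the 5 circRNAs with the smallest p per direction. Others were named after their values were seen. Members and gene lists were chosen with earlier results of these data known. Gene names from RefSeq (NDDB_SH_1, names only) matched 219 of the 226 hosts. The labels give 1 library per animal, and p-values measure the spread between these animals. An exact permutation test of 3 against 3 cannot go below 0.1.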

Additional observations from a re-analysis of the deposited data

How the results depend on the processing

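The number of hosts with 30 or more circRNAs was 226 as counted, 176 with circRNAs within 1 bp merged, 99 where at least 5 reads in a library were asked for, 15 where reads in at least 2 libraries were, and 156 to 212 without each library in turn. The median leading share stayed at 36.9% to 38.9% when libraries were left out. The hotspot share of reads was 20.4% to 22.5% in pregnant and 20.04% to 21.3% in non-pregnant cows.

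Calls depended on the filter and tool. Without a filter edgeR called 86 hosts and 600 circRNAs. At an unadjusted p under 0.05 it gave 542 of 8611 hosts, with 15 of the 226 here. For circRNAs it gave 2122 of 57308, with 452 of the 9406 of these hosts. DESeq2 called 7 hosts and 159 circRNAs. Its unadjusted p was under 0.05 in 372 of 8401 hosts. For circRNAs this was 901 of 56238, with 173 of 9168 of these hosts. With the SRPBM library totals edgeR gave 80 of 4137 hosts below it, with 4 of the 226. For circRNAs this was 160 of 8261, with 37 of 1621 of these hosts. Leaving out each library gave 0 to 2 hosts called and 0 circRNAs called. At an unadjusted p it gave 150 to 501 hosts and 3 to 24 of the 226, with the shares by library given above. For circRNAs it gave 389 to 937 of the 10183 to 12002 tested. Of the 1985 to 2276 tested from these hosts it gave 87 to 201. The make-up test gave 1 to 29 hosts (0 to 9 of the 226) without 1 library, 2 of the 226 with RLE factors and 0 after merging. Shares over all hosts tested were not set beside these make-up counts, which are no result about the 226. The cause of these shifts was not tested.

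The replicate numbers did not pair the samples: deviations from the group means correlated at -0.15, -0.07 and -0.02 for hosts. With the replicate block 1 host was called and the make-up test gave 0 hosts. At an unadjusted p under 0.05 there were then 99 of 4137 hosts, with 5 of the 226. For circRNAs there were 149 of 8261, with 31 of 1621 of these hosts. Fold changes of 21 named hosts and 11 named circRNAs were followed through the alternatives, where 370 values kept direction and side of the threshold, 9 passed it (all of circRNAs, without a filter or with DESeq2) and 14 changed sign. Summed with its partner, an alternative added after seeing the data, circRNA35067 of RALGAPA1 had a log2 fold change of -1.82. The other sign changes were in hosts not called: PICALM (-0.0031 with RLE factors, -0.012 with DESeq2, -0.15 to 1.29 without 1 library), TXNDC16 (-0.21 with RLE factors, -0.021 without a filter, -0.22 with DESeq2, -0.30 to 0.34 without 1 library), MARK3 (0.023 with SRPBM totals, -0.78 to 0.37 without 1 library) and PAN3 (-0.21 with RLE factors, -0.22 with DESeq2, -0.12 to 0.58 without 1 library). With 3 animals per group, few reads per circRNA and 1 library that stood apart, a difference that was not called is not shown to be absent.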
